A study of Mus musculus with 19 samples.

Results

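Myelin is the stack of membrane that oligodendrocytes wrap around axons in the brain, and most of its protein mass is made by a small set of genes that mature oligodendrocytes transcribe at very high levels. In the hippocampus this membrane is dense in the fibre tracts that border CA1, such as the alveus, and sparser among the pyramidal cells. 9 genes of the myelin sheath were followed here, Mbp, Mobp, Mal, Cnp, Cldn11, Mag, Mog, Opalin and Ermn, chosen by name and matched by Ensembl identifier. All 9 passed the filter on low counts, out of 48709 genes counted and 19286 tested.

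The libraries came from CA1 microdissected from the hippocampus of male C57B/6J mice. There were 6 libraries of young mice aged 3 months, and 6 old control and 7 old anti-miR-mix libraries of mice aged 16.5 months. The labels number the libraries within a group without saying that each is a separate animal, so p-values measure the spread between these libraries. All mice, the young ones included, received lipid nanoparticles in the dorsal hippocampus and were later trained in a water maze. For young and old control mice the particles held control oligonucleotides, and for old anti-miR-mix mice they held inhibitors against 3 microRNAs, which are miR-148a-3p and miR-146a-5p together with miR-181a-5p. The tissue was not sorted, so fewer oligodendrocytes and less RNA per oligodendrocyte cannot be told apart. Depth ran from 26653511 to 38908947 reads per library, and the least read member, Opalin, had between 805 and 1669 reads, so that counting error was small beside the differences between libraries.

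Young and old control mice were compared for age, old anti-miR-mix and old control mice for the inhibitors in old tissue, and old anti-miR-mix and young mice for the difference between treated old and young tissue. Because the inhibitors act on microRNAs that bind messenger RNAs through a short seed, the seeds are shown first. The mature sequences are those of RefSeq (GRCm38.p6), with the seed, bases 2 to 8, in capitals.
mmu-miR-181a-5p: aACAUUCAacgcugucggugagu
mmu-miR-146a-5p: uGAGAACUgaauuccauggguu
mmu-miR-148a-3p: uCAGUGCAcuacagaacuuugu

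The letters that pair with these seeds are TGAATGT for the first microRNA, AGTTCTC for the second and TGCACTG for the third. They do not overlap each other and were searched on the sense strand of 1 annotated 3′ UTR per gene in GENCODE M21. Of the 9 members, 1 held any of them, against 35.0% of 15351 genes with a UTR. The shares of all genes with the single sites were 18.1% for miR-181a-5p, 12.4% for miR-146a-5p and 14.9% for miR-148a-3p. The UTRs of the members were between 535 bases for Mag and 3935 bases for Mbp, and the median over all genes was 1165 bases. The 1 match was in Opalin, at base 1096 of a UTR of 1330 bases. It lies on the minus strand at chr19:41062701-41062707 (GRCm38), and the capitals mark the letters opposite the seed of miR-181a-5p.
Opalin: taagaagatccaccTGAATGTg

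A match of letters does not show binding, and the other 8 UTRs only lack these letters in the annotated window.

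The 9 members differ widely in level. By length of annotated exon, Mbp, whose protein holds the cytoplasmic faces of the myelin membrane together, stood at 427.9 ± 83.0 CPM per kilobase in young mice (mean ± SD, n = 6). CPM is the read count of a gene scaled to the same number of reads in every library. Mobp, another basic protein of compact myelin, followed at 202.8 ± 36.0 CPM per kilobase (SD, n = 6). Mal, a raft-associated membrane proteolipid, at 148.9 ± 24.6, and Cnp, a phosphodiesterase of the cytoplasmic channels of myelin, at 134.9 ± 23.5 CPM per kilobase came next. Cldn11, the claudin of myelin tight junctions, stood at 114.7 ± 23.9 CPM per kilobase. Mag, an adhesion molecule facing the axon, was at 67.4 ± 11.4, and Mog, an immunoglobulin-like protein of the outer surface, at 59.7 ± 9.87 CPM per kilobase. Ermn, a cytoskeletal protein of late oligodendrocytes, at 28.7 ± 4.86, and Opalin, a transmembrane protein of oligodendrocytes, at 12.2 ± 1.75 CPM per kilobase closed the order. The order of the 9 means was the same in old control mice. In old anti-miR-mix mice Cnp, at 113.2, and Mal, at 112.3 CPM per kilobase, changed places. The SDs are spreads between libraries. The members vary together over libraries, as shown further on, so these SDs do not tell whether neighbours in the order differ. Differences between members were not tested.

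In GRCm38 the members lie on 8 chromosomes. Mbp spans chr18:82475146-82585637 on the plus strand, a gene that also holds the Golli transcripts, which counts per gene do not separate from the myelin forms. Mal lies at chr2:127633226-127656695 on the minus strand, Mog at chr17:37010743-37023398 on the minus strand, Cldn11 at chr3:31149920-31164324 on the plus strand, Cnp at chr11:100574904-100591729 on the plus strand and Mag at chr7:30899176-30914873 on the minus strand. Mobp lies at chr9:120149707-120181484 on the plus strand, Opalin at chr19:41061710-41077113 and Ermn at chr2:58045113-58052864, both on the minus strand. Cnp shares 154 exonic bases with Dnajc7 on the opposite strand, a gene with a mean of 4340.68 reads per library, and whether the counting used strand is not stated in the sources used here.

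Summed over the members, the level was 5371.7, 6237.8 and 8737.8 CPM as the lowest, median and highest of the 6 young libraries. In the 6 old control libraries these values were 4871.2, 5400.6 and 5717.9 CPM, and in the 7 old anti-miR-mix libraries 4939.8, 6544.1 and 7535.6 CPM. The old control libraries were thus low and close together, and the ranges of the 3 groups overlapped. Old control libraries 5 and 6 were the most alike of all pairs within a group. In a comparison of their counts the chi-square per degree of freedom was 2.18, with 6.1 for the next pair. Whether these are separate animals is not stated in the labels. The 9 genes took between 0.485% and 0.865% of all reads of a library. Young library 4 had the highest level of all 9 members among young mice, and young library 6 had the lowest level of 8 of them, all but Ermn.

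**Figure D1:**
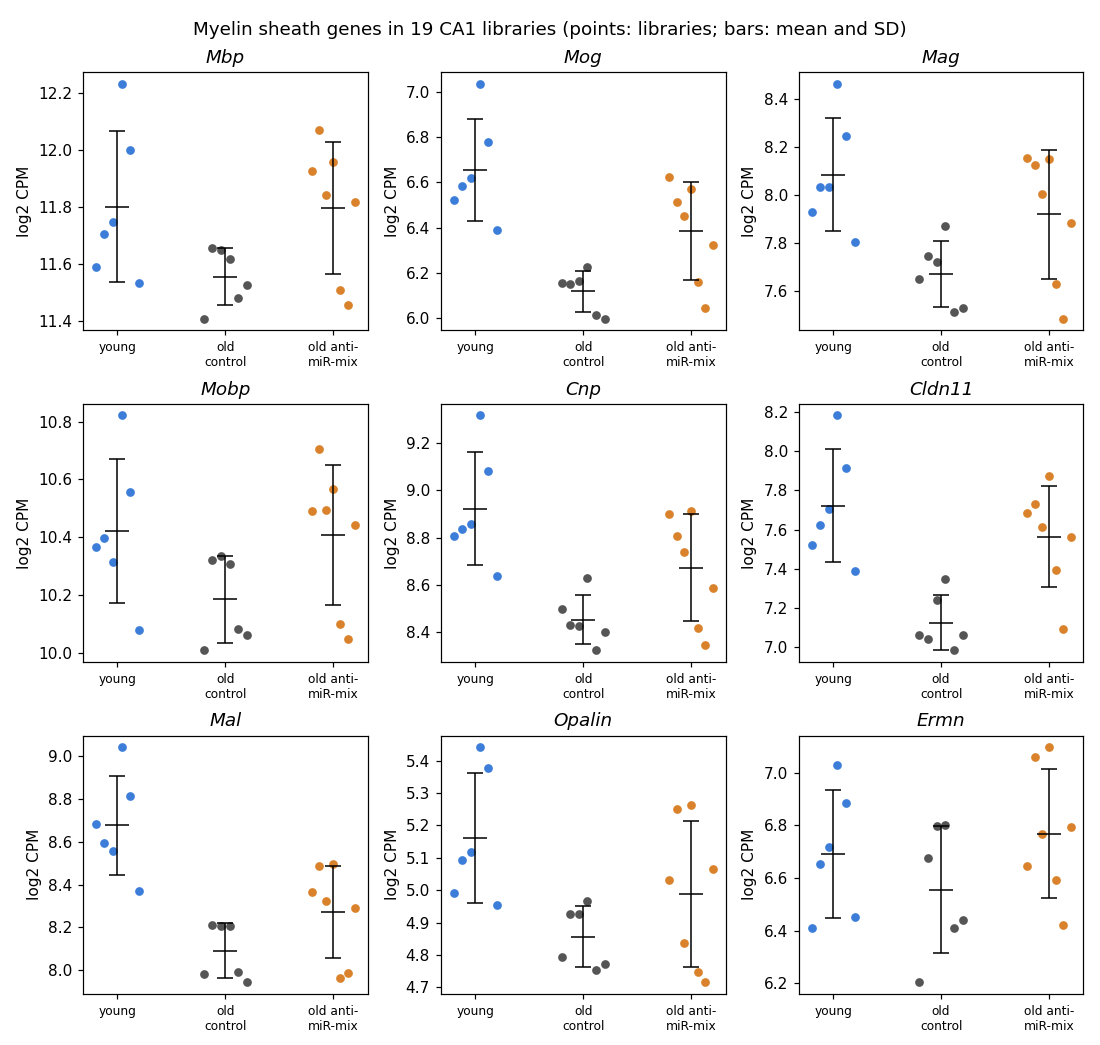
Level of each of the 9 myelin sheath genes (log2 CPM, vertical axis) in 19 libraries, by group; points are libraries and bars the mean and SD (n = 6 for young, 6 for old control and 7 for old anti-miR-mix). Mog, Cnp, Cldn11 and Mal in old control mice lie below every young library, and 2 old anti-miR-mix libraries lie at the level of the old controls in most panels.

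With age, 5 of the 9 genes fell past the threshold, Mal, Cldn11, Mog, Cnp and Mag, and none rose. Of all genes tested, 1.34% were called lower and 1.32% higher in the same comparison (edgeR quasi-likelihood test, adjusted p under 0.05). All 9 members had a lower mean in old control than in young mice, with a median log2 fold change of -0.425 against 0.006 over all genes, and 8 of the 9 had an unadjusted p under 0.05, where 8.92% of all genes were lower at that level. In 4 of the 9, Mog, Cnp, Cldn11 and Mal, every old control library lay below every young library, which held for 1.28% of all genes. The members move together over libraries, as shown further on, so these counts are not 9 independent observations.

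Mal had log2 CPM of 8.37, 8.64 and 9.04 as lowest, median and highest in young mice and of 7.94, 8.10 and 8.21 in old control mice. The groups were separate, and the fitted log2 fold change was -0.60 (SE 0.10, adjusted p = 0.0029, edgeR). Cldn11 ran from 7.39 over a median of 7.66 to 8.18 log2 CPM in young mice and from 6.98 over 7.06 to 7.35 in old control mice. Its highest old control value lay just under its lowest young value, and the log2 fold change was -0.62 (SE 0.12, adjusted p = 0.00865, edgeR).

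Mog, the membrane protein at the outermost face of the sheath, was 6.39, 6.60 and 7.04 log2 CPM (lowest, median, highest) in young mice and 6.00, 6.15 and 6.22 in old control mice. The difference was -0.55 (SE 0.10, adjusted p = 0.00397, edgeR). Cnp was 8.64, 8.85 and 9.32 log2 CPM in young mice and 8.32, 8.43 and 8.63 in old control mice. Here the groups were parted by less than 0.01, and the log2 fold change was -0.49 (SE 0.10, adjusted p = 0.0162, edgeR). Mag was 7.80, 8.03 and 8.46 log2 CPM in young mice and 7.51, 7.68 and 7.87 in old control mice. Its groups overlapped, with a log2 difference of -0.425 (SE 0.12, adjusted p = 0.0483, edgeR) that stood closest to the threshold. The call of Mag held in 7 of the 19 fits that each left out 1 library, with adjusted p between 0.0305 and 0.146, whereas the calls of Mal, Cldn11, Mog and Cnp held in all 19. With old control libraries 5 and 6 summed, these 4 calls held and Mag was at -0.397 (adjusted p = 0.103, edgeR).

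The other 4 members were not called. Opalin had 4.95, 5.10 and 5.44 log2 CPM in young and 4.76, 4.86 and 4.97 in old control mice and overlapped by 1 library on each side, with a log2 difference of -0.32 (SE 0.10, adjusted p = 0.0822, edgeR). The most abundant pair, the basic proteins of compact myelin, differed less. Mbp had 11.54, 11.73 and 12.23 log2 CPM in young and 11.41, 11.57 and 11.66 in old control mice, a difference of -0.26 (SE 0.11, adjusted p = 0.202, edgeR). Mobp had 10.08, 10.38 and 10.82 against 10.01, 10.19 and 10.34 log2 CPM, a difference of -0.25 (SE 0.11, adjusted p = 0.248, edgeR). Ermn showed the smallest difference, with 6.41, 6.69 and 7.03 against 6.20, 6.56 and 6.80 log2 CPM and a log2 difference of -0.14 (SE 0.12, adjusted p = 0.605, edgeR).

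**Figure D2:**
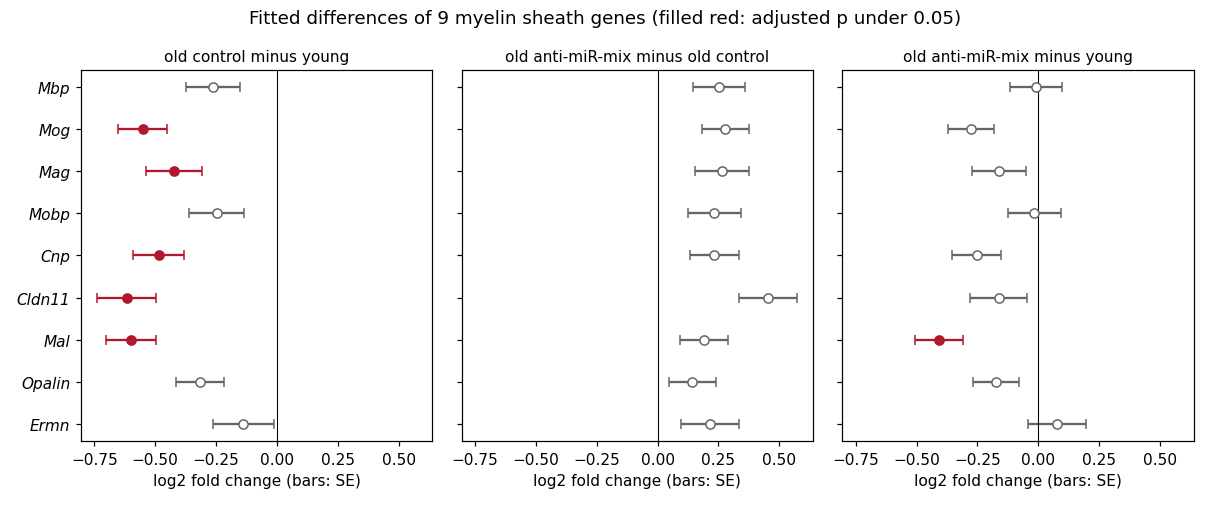
Fitted log2 fold changes of the 9 genes (horizontal axis; bars, SE) in the 3 comparisons; filled red points passed an adjusted p of 0.05 over 19286 genes. In the left panel 5 genes passed, all lower in old control mice, in the middle panel 0 passed with all 9 above 0, and in the right panel only Mal passed.

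3 libraries had raised levels of choroid plexus genes, whose list of 7 genes summed to 107.3 CPM in old anti-miR-mix library 2, 87.4 in old control library 6 and 82.8 in old control library 5, against at most 30.3 CPM in young mice. Without these 3 libraries the age comparison called 131 genes over all, in place of 514, and 1 member, Mal (log2 fold change -0.54, adjusted p = 0.037). Mog (-0.50, adjusted p = 0.0522), Cldn11 (-0.57, adjusted p = 0.073), Cnp (-0.44, adjusted p = 0.103) and Mag (-0.35, adjusted p = 0.212, all edgeR) missed the threshold. Their differences were all somewhat smaller than in the full set. The fit held 4 old control libraries, and why the calls were lost was not tested. The summed choroid plexus level did not follow the summed members over libraries (r = -0.177, n = 19). This r pools libraries that differ. Old control libraries 5 and 6 had summed members of 5001.7 and 5103.7 CPM, under their group's median of 5400.6. Old anti-miR-mix library 2 had the highest sum of its group, 7535.6 CPM. A part of choroid plexus tissue in the members' differences was not tested.

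In old mice given the anti-miR-mix, 0 of the 9 genes passed the threshold against old control mice, while 0.669% of all genes were called higher and 0% lower by edgeR (129 and 0 genes, with 646 lower at an unadjusted p under 0.05; DESeq2 called 8 lower and limma 0). Of the members 6 had an unadjusted p under 0.05, where 7.16% of all genes were higher at that level. That count ran from 2 (without old anti-miR-mix library 1, 2 or 4, or old control library 5) to 8 when 1 library was left out. It was 3 with old control libraries 5 and 6 summed and 2 with the processing group as a factor. Without the 3 libraries high in choroid plexus genes it was 1. DESeq2 called 1 member, Cldn11, and limma on the deposited log2 values called 0. All 9 means were higher in old anti-miR-mix mice, with log2 fold changes from 0.14 for Opalin to 0.45 for Cldn11 and a median of 0.233, against 0 over all genes. Without those 3 libraries the 9 differences stayed above 0 and were smaller, with a median of 0.158, and those of Opalin (0.05), Mal (0.10), Ermn (0.10), Mobp (0.12) and Mag (0.16) were less than the full values by over 1.5 times. With the processing group as a factor the median was 0.172 and Ermn was at 0.11. Every member overlapped between the groups, and 0.425% of all genes had every old anti-miR-mix library above every old control library.

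Cldn11 had the largest difference. Its log2 CPM was 7.09, 7.61 and 7.88 (lowest, median, highest) in old anti-miR-mix mice against 6.98, 7.06 and 7.35 in old control mice, a log2 difference of 0.45 (SE 0.12, adjusted p = 0.0875, edgeR). 6 of the 7 old anti-miR-mix libraries lay above the highest old control library, and library 6 lay among the old controls. Without that library the adjusted p was 0.0163, without young library 4 it was 0.0462, and over all 19 fits that left out 1 library it ran from 0.0163 to 0.235. Mog was 6.04, 6.45 and 6.62 log2 CPM in old anti-miR-mix mice, a difference of 0.28 (SE 0.10, adjusted p = 0.257, edgeR) from old control mice. Mbp was 11.46, 11.84 and 12.07 log2 CPM, a difference of 0.25 (SE 0.11, adjusted p = 0.388, edgeR). Opalin had the smallest difference of the 9, 0.14 (SE 0.10, adjusted p = 0.639, edgeR), from 4.72, 5.03 and 5.26 log2 CPM. Mal, at 0.191 (SE 0.099), and Ermn, at 0.215 (SE 0.12), were close to it. A link of the seed match in Opalin to its difference was not tested.

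The old anti-miR-mix libraries differed among themselves. Libraries 5 and 6 had summed member levels of 5167.1 and 4939.8 CPM, inside the range of the old controls, whereas the other 5 lay between 6346.7 and 7535.6 CPM, above every old control library. The labels give no difference in treatment between these libraries.

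Against young mice, the old anti-miR-mix group had 1 member called, Mal, at -0.41 (SE 0.10, adjusted p = 0.014, edgeR), where 1.63% of all genes were called lower and 4.57% higher. Mal was 7.96, 8.32 and 8.50 log2 CPM in old anti-miR-mix mice. The groups overlapped for Mal and for the other 8 members, while 0.627% of all genes had every old anti-miR-mix library below every young one. The call of Mal held in all 19 fits that left out 1 library, with adjusted p from 0.00548 to 0.0475. Mog (-0.28, SE 0.10, adjusted p = 0.0929) and Cnp (-0.25, SE 0.10, adjusted p = 0.154) followed. Mbp (-0.01, SE 0.11) and Mobp (-0.02, SE 0.11) were near 0 and took either sign when single libraries were left out, and Ermn was at 0.08 (SE 0.12). The 3 comparisons share their libraries, so that a low old control group places the 2 others apart from it in the same direction.

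The 9 genes varied together from library to library. Over all 36 pairs, Pearson's r across the 19 libraries was between 0.589 and 0.987, with a median of 0.884, and with the group means removed it was between 0.711 and 0.983. The first principal component held 90.6% of the members' variance within groups. The SD of a member within groups was 0.19 to 0.24 in log2 CPM, against a median of 0.08 over the 6237 genes with at least as many reads as Opalin. All genes of a library share its tissue piece and depth, so these correlations are a description without a test.

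Other genes of the oligodendrocyte lineage were compared from lists by stage. The summed level of 20 other proteins of myelinating oligodendrocytes followed that of the members over libraries (r = 0.967, n = 19), as did that of 6 enzymes of myelin lipid synthesis (r = 0.959), 7 oligodendrocyte transcription factors (r = 0.922) and 6 genes of committed precursors and new oligodendrocytes (r = 0.961). The 8 genes of oligodendrocyte precursors, the dividing cells of the lineage, did not (r = -0.323). Among the 5 genes with the pattern most like that of the members, by r over 19 libraries with their mean z-score among 15951 genes, were Gjc3 (0.971), a connexin, Adamts4 (0.964), a secreted protease, Fa2h (0.961), the enzyme that hydroxylates myelin fatty acids, and Phldb1 (0.956).

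**Figure D3:**
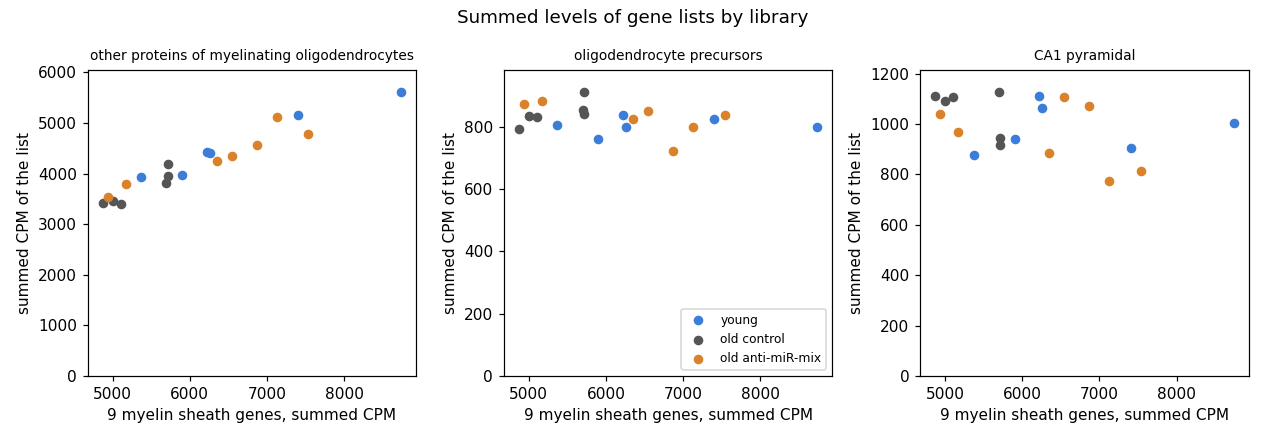
Summed CPM of the 9 myelin sheath genes (horizontal axis) against the summed CPM of 3 gene lists (vertical axis) in 19 libraries, coloured by group. The 20 other proteins of myelinating oligodendrocytes are higher where the members are higher (r = 0.967), and the 8 precursor genes (r = -0.323) and 6 CA1 pyramidal genes (r = -0.386) do not.

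In the age comparison, 2 of the 20 other proteins fell, among them the tetraspanin Tspan2 at -0.55 (SE 0.10, adjusted p = 0.00326, edgeR), and the list's median was -0.123. Of the 6 lipid enzymes 1 fell, Ugt8a, which makes galactosylceramide, at -0.48 (SE 0.11, adjusted p = 0.0216, edgeR), while limma called 2 of the 6 and DESeq2 4, adding Fa2h (-0.44, edgeR adjusted p = 0.0526), Elovl1 (-0.29, 0.0779) and Gal3st1 (-0.34, 0.0932), named after their values were seen. Of the 7 transcription factors 1 fell, Zfp488, at -0.58 (SE 0.11, adjusted p = 0.00488, edgeR), while Myrf (-0.11) and Sox10 (-0.06), regulators of the myelin genes, did not pass. Among the 6 genes of committed precursors and new oligodendrocytes 3 fell, by more than any member. They were Gpr17, a receptor of committed precursors, at -0.91 (SE 0.08, adjusted p = 3.22e-06), Enpp6 at -0.74 (SE 0.14, adjusted p = 0.00588) and the low-count Bmp4 at -1.10 (SE 0.20, adjusted p = 0.00454, edgeR). Of the 8 precursor genes 0 passed in edgeR, DESeq2 or limma and 0 had an unadjusted p under 0.05, with a median of 0.039, and Pdgfra was at 0.05 (SE 0.05). On the axonal side 1 of 5 genes fell, Nfasc, whose glial form is also made by oligodendrocytes, at -0.31 (SE 0.05, adjusted p = 0.0029, edgeR).

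Against old control mice, the old anti-miR-mix group had 0 genes of these 6 lists called by edgeR and 0 by limma. DESeq2 called 4 (Gjb1, Zfp488, Enpp6 and Tns3, named after their values were seen). At an unadjusted p under 0.05 there were 26, against 2026 of all 19286 genes. Higher were 4 of 6 lipid enzymes, 13 of 20 other proteins, 4 of 7 transcription factors and 3 of 6 genes of committed precursors. These lists follow the members over libraries, so their counts are not independent observations. Of the 8 precursor genes 0 were at that level. On the axonal side 2 of 5 were lower, Cntnap2 (-0.158) and Cntn1 (-0.099). Against young mice, Gpr17 (-0.69, SE 0.08, adjusted p = 1.62e-05) and Bmp4 (-0.84, SE 0.19, adjusted p = 0.00798) were lower in old anti-miR-mix mice, as were Tspan2 (-0.34, SE 0.09, adjusted p = 0.0274) and Nfasc (-0.24, SE 0.05, adjusted p = 0.00575, edgeR). Of the 20 other proteins 4 were higher there than in young mice, the lipocalin Apod at 0.56 (SE 0.13, adjusted p = 0.00989), Anln at 0.46 (SE 0.10, adjusted p = 0.0073), the link protein Hapln2 of the nodes of Ranvier at 0.45 (SE 0.10, adjusted p = 0.00741) and the connexin Gjb1 at 0.31 (SE 0.09, adjusted p = 0.0493, edgeR).

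Since the members vary together, their ratios show what differs beyond the shared level. Mbp was used as the reference because it has the most reads, and ratios were compared between groups only, not between genes. In log2 ratio to Mbp, Mal was -3.19, -3.18 and -2.91 (lowest, median, highest) in young mice, -3.59, -3.44 and -3.41 in old control mice and -3.59, -3.53 and -3.46 in old anti-miR-mix mice. All 13 old libraries lay below all 6 young ones, by a gap of 0.225. Mog was -5.22, -5.14 and -5.07 in young, -5.53, -5.48 and -5.26 in old control and -5.56, -5.39 and -5.30 in old anti-miR-mix mice, again with no overlap, by a gap of 0.035. This separation was found for 9 genes, 0.0467% of those compared, and the other 7 were Rnf122, Gpr17, Cnksr3, Casr, Tspan2, Chst3 and Gamt, named after their values were seen. A gene that does not vary with Mbp carries the spread of Mbp between libraries in its ratio. The share is thus low partly through the choice of reference, and is no fair background for genes that vary with Mbp.

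Cnp (-2.88 in young, -3.11 in old control, -3.13 in old anti-miR-mix mice, group means) and Mag (-3.72, -3.89 and -3.88) had lower means in both old groups with a slight overlap. Mobp differed little in its ratio to Mbp, with means of -1.38, -1.37 and -1.39. Cldn11 had mean ratios of -4.08 in young, -4.43 in old control and -4.23 in old anti-miR-mix mice. Its mean was higher by 0.20 in old anti-miR-mix than in old control mice, where the other 7 ratios differed by -0.11 to 0.03, and the libraries of the old groups overlapped. The separation of Mal and Mog held with Mobp as the reference, where 0.0311% of genes were separate. It also held with the mean of 26 other oligodendrocyte genes as the reference, where 0.114% were. With that mean, Mag, Cnp, Cldn11 and Opalin were separate too. Both shares have the limit given above for the ratio to Mbp.

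**Figure D4:**
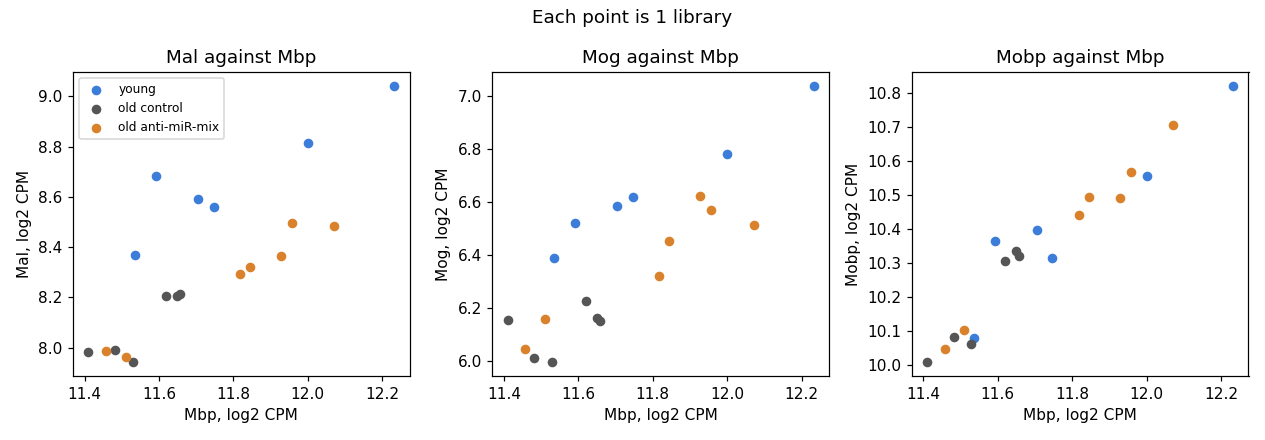
Log2 CPM of Mal, Mog and Mobp (vertical axes) against that of Mbp (horizontal axis), 1 point per library, coloured by group. The 13 old libraries have less Mal for their Mbp than the 6 young ones, the same holds narrowly for Mog, and the groups mix along 1 line for Mobp.

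The same question was put to the whole table by adding to the model a term for the mean log2 CPM of the 26 other oligodendrocyte genes, a fit chosen after the members were seen to move together. With this term 6 of the 9 members were lower in old control than in young mice, the 5 called before and Opalin, with 0.918% of all genes called lower. Mal was at -0.46 (SE 0.06, adjusted p = 0.000126), Cldn11 at -0.43 (SE 0.04, adjusted p = 1.97e-05), Mog at -0.41 (SE 0.05, adjusted p = 0.000152) and Opalin at -0.17 (SE 0.05, adjusted p = 0.0474, edgeR). Mbp (-0.10, adjusted p = 0.349), Mobp (-0.10, adjusted p = 0.467) and Ermn (0.04, adjusted p = 0.794) did not pass. The term itself is made of genes that differ between the groups, so these values are differences relative to the other oligodendrocyte genes and not of level.

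The same 6 members were lower in old anti-miR-mix than in young mice with this term, where 2.06% of all genes were called lower. Mal was at -0.50 (SE 0.06, adjusted p = 1.46e-05), Mog at -0.36 (SE 0.05, adjusted p = 0.00011) and Cnp at -0.34 (SE 0.05, adjusted p = 0.000446, edgeR). Between the old groups 0 members and 0 genes in all were called with the term by edgeR, with 934 genes and 1 member, Cldn11, at an unadjusted p under 0.05. The median of the 9 differences was -0.008, in place of 0.233 without it, and Cldn11 was at 0.16 (SE 0.05, adjusted p = 0.455).

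**Figure D5:**
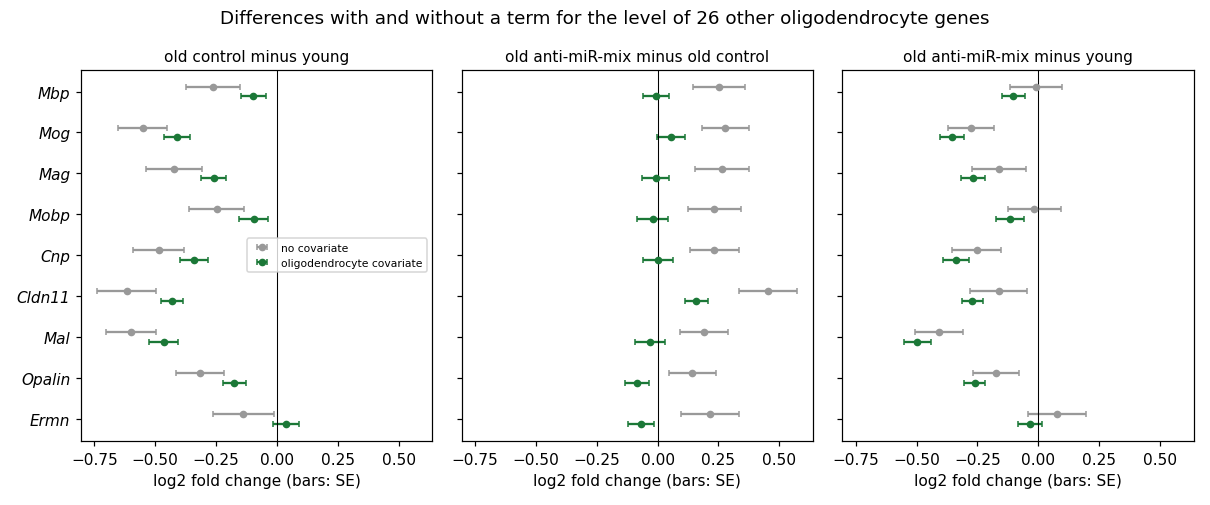
Log2 fold changes of the 9 genes (horizontal axis; bars, SE) without (grey) and with (green) a term for the level of 26 other oligodendrocyte genes, in the 3 comparisons. In the middle panel the green points lie around 0 except Cldn11 at 0.16, and in the outer panels Mog, Mag, Cnp, Cldn11, Mal and Opalin stay below 0.

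How much white matter a piece of tissue holds depends on the dissection, and markers of regions next to CA1 were read for it. The summed level of 5 thalamus genes was 85.7 to 115.1 CPM in young, 82.2 to 97.2 in old control and 70.7 to 129.5 in old anti-miR-mix mice, and it followed the members in part (r = 0.643 over 19 libraries, 0.547 within groups). 1 of its genes, Prkcd, passed, higher in old anti-miR-mix than in young mice. In that comparison 4 of the 5 thalamus genes were below 0, with a list median of -0.208. The sum of 6 deep cortex and subplate genes, the layers that face the white matter above CA1, was 103.9 to 167.4 CPM in young, 102.1 to 131.6 in old control and 90.3 to 145.3 in old anti-miR-mix mice (r = 0.053). In the age comparison the median log2 fold change of these 6 genes was -0.425, equal to that of the members, with 5 of 6 below 0 and 3 of 6 at an unadjusted p under 0.05. Of the 6, 0 were called by edgeR or limma and DESeq2 called 1, Cplx3 (-0.75, SE 0.20, edgeR adjusted p = 0.0515). Against young mice their median in old anti-miR-mix mice was -0.342, with 6 of 6 below 0. The thalamus genes had a median of -0.222 with age, with 4 of 5 below 0, 2 at an unadjusted p under 0.05 and 0 called by edgeR, DESeq2 or limma. The 6 CA1 pyramidal genes summed to 877.2 to 1110.1, 916.8 to 1125.5 and 773.5 to 1109.0 CPM (r = -0.386), with 1 call, Wfs1, lower in old anti-miR-mix than in young mice. The part of the dissection in the members' differences was not tested. No defining marker on these lists was at 0 in all libraries.

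CA3 pyramidal and dentate granule genes, 6 each, had 0 calls in all 3 comparisons by edgeR, DESeq2 or limma, and 0 at an unadjusted p under 0.05. Of the other glia, 3 of 6 microglia genes were higher in old anti-miR-mix than in old control mice, C1qa and Csf1r among them, and their list's sum ran from 384.3 to 451.3 CPM in old control and from 440.7 to 583.0 CPM in old anti-miR-mix mice. Against young mice 5 of the 6 were higher in the treated group, and 1 of them, Cx3cr1, already differed with age, being higher in old controls. The sum did not follow the members over libraries (r = 0.103). 2 of 6 astrocyte genes, Gfap and Slc1a3, were higher in old anti-miR-mix than in young mice (list sum against members, r = 0.108). Of 5 genes of Schwann cell myelin, the sheath of peripheral nerve, 4 passed the filter on counts. Pmp22 was higher in old anti-miR-mix than in young mice, by 0.52 (SE 0.09, adjusted p = 0.000695, edgeR). Drp2 (0.025), Ncmap (-0.098) and Prx (-0.113) were not called there, and the median of the 4 was -0.036. Of 6 ependyma genes 3 passed the filter and 1 was called, Rarres2, higher in the same comparison. Dynlrb2 (-0.41) and Ccdc153 (-0.256) were below 0 there and not called. The ependyma list was near the floor, with a sum of at most 5.0 CPM in any library.

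The authors' table of log2 values differed from log2(CPM + 1) by a slope per gene times a number from 1 to 4 per library. These numbers were derived here from the values, and no label or header gives them. They are called processing groups here, and what they stand for is not given in the sources used here. Within the 3 groups that hold young and old control libraries, 8 members had lower means in old control mice in 3 of 3, Mal by 0.39 to 0.62, and Ermn in 1 of 3. Within the 3 that hold both old groups, Cldn11, Mal and Mog were higher in old anti-miR-mix mice in 3 of 3 and the other 6 in 2 of 3. Mal was lower in old anti-miR-mix than in young mice in 4 of 4. Each of these groups holds 3 libraries or fewer of a kind, so no test was made within them.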

How the data were processed

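CA1 RNA was measured in 19 libraries by polyadenylated RNA sequencing. By the study's methods and the submitters' processing notes, the authors made TruSeq libraries, sequenced single-end reads of 50 bases, checked them with FastQC 0.11.5, aligned them to mm10 with STAR 2.5.2b and counted reads per gene with featureCounts of Subread 1.5.1; strand and multi-mapping options are not given in the sources used here. Each deposited count file held unnormalised read counts by Ensembl gene. The deposited table of log2 values held, for 18761 genes, log2(CPM + 1) less a slope times a number from 1 to 4 per library, which matched the counts to within 3.4e-08.

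Groups came from the sample descriptions. The titles of young and old control libraries also carry the name anti-miR-mix, and the descriptions were followed. Symbols came from GENCODE M21 (48349 of 48709 identifiers matched). A gene was tested if 50% or more of the libraries had 5 or more reads of it (19286 genes), with edgeR 4.0.16 in R 4.3.3, by TMM scaling and the quasi-likelihood test, all 3 groups in 1 fit without covariates, with Benjamini-Hochberg adjustment over all genes and a threshold of 0.05. Log2 CPM used a prior count of 2. The filter and threshold follow the study, which used DESeq2 and states no covariates for these libraries. DESeq2 1.42.0, limma 3.58.1 on the log2 values, other scalings and filters, a replicate block, processing group terms and leaving out each library were alternatives. The term for oligodendrocyte genes and leaving out 3 libraries were added after the data were seen.

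All 9 members are named, with calls and up to 2 high genes of each list, and genes among the 5 most like the members; some genes are not reported here. The members and lists were chosen with earlier results of these data known. Reads are not unique molecules.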

Additional observations from a re-analysis of the deposited data

Results flagged for a closer look

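Of 54 groups of values, the level of each member, its ratio to Mbp and the members' sum in each experimental group, 3 held 1 library far from the others of its group, where chance gives about 1 in 20. In young mice, library 1 had a log2 ratio of Mal to Mbp of -2.907, above the other 5 young libraries (-3.19 to -3.11), and a ratio of Cnp to Mbp of -2.787, above the others (-2.92 to -2.87). The third was young library 4, whose ratio of Opalin to Mbp was -6.792, below the others (-6.63 to -6.58). Young library 4 also had the highest summed level of the 9 members of all 19 libraries, 8737.8 CPM.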

How the results depend on the processing

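Over 514 genes called with age, the count was 914 with DESeq2, 323 without the filter, 305 with old control libraries 5 and 6 summed (their chi-square per degree of freedom was 2.18, the next lowest pair 6.1) and 131 without the 3 libraries high in choroid plexus genes, where 1 member was called. For treatment, 129 genes became 267 (DESeq2), 249 (replicate block), 9 (processing group as a factor), 33 (5 and 6 summed), 0 (oligodendrocyte term) and 0 (without the 3 libraries). Cldn11 was the 1 member called under treatment with DESeq2 and with the replicate block. Old anti-miR-mix against young mice had 2 members called with the block and with the processing factor, Mal and Mog, and 6 with the oligodendrocyte term. With the block, Opalin was also called with age (adjusted p = 0.044). Replicate numbers did not pair the libraries (r -0.17 to 0.214), and the block result stands for a shared number alone. Leaving out 1 library gave 212 (without young 4) to 691 genes and 4 to 5 members for age, 23 (without old control 5) to 247 genes (without old anti-miR-mix 1) and 0 to 1 members for treatment, and 892 to 1256 genes and 1 to 2 members for old anti-miR-mix against young mice.

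Signs turned for values near 0. Against young mice, Mbp in old anti-miR-mix mice was 0.000145 with library size only and 0.00101 with limma, and when single libraries were left out it ran from -0.0634 to 0.0915 and Mobp from -0.0807 to 0.0774. With the oligodendrocyte term, Ermn was 0.0366 with age and -0.0326 against young mice, and treatment differences were -0.00576 for Mbp, -0.00765 for Mag, -0.02 for Mobp, -0.0307 for Mal, -0.0844 for Opalin and -0.0692 for Ermn. Mag lost its age call without the filter (adjusted p = 0.0502), with the processing factor (0.066) and with 5 and 6 summed (0.103). The cause was not tested. Depth limited none of the members.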
